A study of Drosophila melanogaster with 23 samples.

Results

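The genes described here are those whose nascent RNA was lower after LaminB knockdown in Kc167 cells, a Drosophila melanogaster line of embryonic, female origin. They were chosen by a fixed rule on library-scaled counts (CPM, in which the reads of a gene are scaled to the column total of its library). A gene needed a mean of at least 10 CPM in mock, a LaminB KD mean of at most 0.67 times mock, and a highest LaminB KD library below the lowest mock library. Lam itself and genes with rRNA in their symbol were left out. The rule found 178 genes among 5935 at 10 CPM or more, out of 17659 counted. Of the 178, 63 were also at or below 0.8 times mock after AGO2 knockdown and 115 were above it.

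The nuclear lamina is a protein meshwork under the inner nuclear membrane. It is built from intermediate filament proteins called lamins, of which LaminB, the product of Lam, is the B-type lamin of the fly. It anchors membrane proteins and pore complexes and binds large, mostly silent stretches of chromatin, while many housekeeping genes lie away from it.

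All libraries are neuRNA-seq libraries, which hold RNA that took up 5-ethynyl uridine (EU, 0.2 mM) during 1 h of labelling. In experiment 1, cells were transfected with no RNA (mock, 3 libraries), with dsRNA against LaminB (LaminB KD, 3 libraries) or with siRNA against AGO2 (AGO2 KD, 3 libraries), AGO2 being the Argonaute that carries small interfering RNAs. In experiment 2, there were 2 libraries each of mock, of siRNA aimed at the 5′UTR of AGO2 (si5UTR), of this siRNA with a tagged wildtype AGO2 construct (si5UTR+AGO2) and of this siRNA with the V966M catalytic mutant (si5UTR+V966M). In experiment 3, there were 3 libraries of mock and 3 of dsRNA against Dcr-2, the nuclease that makes small interfering RNAs (Dcr-2 KD). Every group is the same cell line, collected 3 days after transfection. No group of experiment 1 received another dsRNA, so within it loss of LaminB and the dsRNA itself cannot be told apart. The dsRNA against Dcr-2 belongs to another experiment, with its own mock, and the 178 genes are described there as well.

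Total counts ranged from 5215481 to 15641835 reads over the 23 libraries. Lam had 101, 130 and 108 CPM in the LaminB KD libraries against 364, 360 and 357 CPM in mock, so the labels and the targeted gene match. The other targets fell less. AGO2 had 237, 211 and 213 CPM in AGO2 KD against 307, 334 and 315 CPM in mock. Dcr-2 had 173, 188 and 133 CPM in Dcr-2 KD against 232, 226 and 239 CPM in its mock. The haemocyte genes Hml, Pxn, srp and ush had means from 993 to 2537 CPM in both groups, whereas NimC1, PPO1, PPO2 and gcm were at or near 0. The summed CPM of the 12 haemocyte markers was 7005 in mock and 7620 in LaminB KD, and that of 6 neuron markers was 167 and 312 CPM. Most of the neuron sum in LaminB KD came from brp, with 66.1 CPM in mock and 192 CPM in LaminB KD. In mock, elav was higher than brp, with 70.0 CPM in mock and 84.7 CPM in LaminB KD. futsch had 30.1 and 31.9 CPM, while Syt1 and Rdl were near 0 in both groups. The part of these shifts in the results was not tested. In such bulk libraries, fewer cells of a kind and less RNA per cell cannot be told apart. The labels do not say whether the libraries of a group came from separate cultures, so p-values measure only the spread between these libraries.

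Over all 178 genes, the summed level was 6268, 6467 and 6269 CPM in mock and 3710, 4044 and 3975 CPM in LaminB KD. AGO2 KD lay between, with 5440, 5274 and 5317 CPM. The LaminB KD to mock ratio of a gene had a median of 0.621 and ran from 0.409 to 0.669. It was below 0.5 for 14 genes. These values follow from the rule and are given as a description with no test. The median ratio of all 5935 genes was 0.927. On the TMM scale used in the fits, which is set so that most genes centre on no change, the median log2 fold change was -0.64 for the 178 genes and -0.0049 for all 8142 genes tested.

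**Figure D1:**
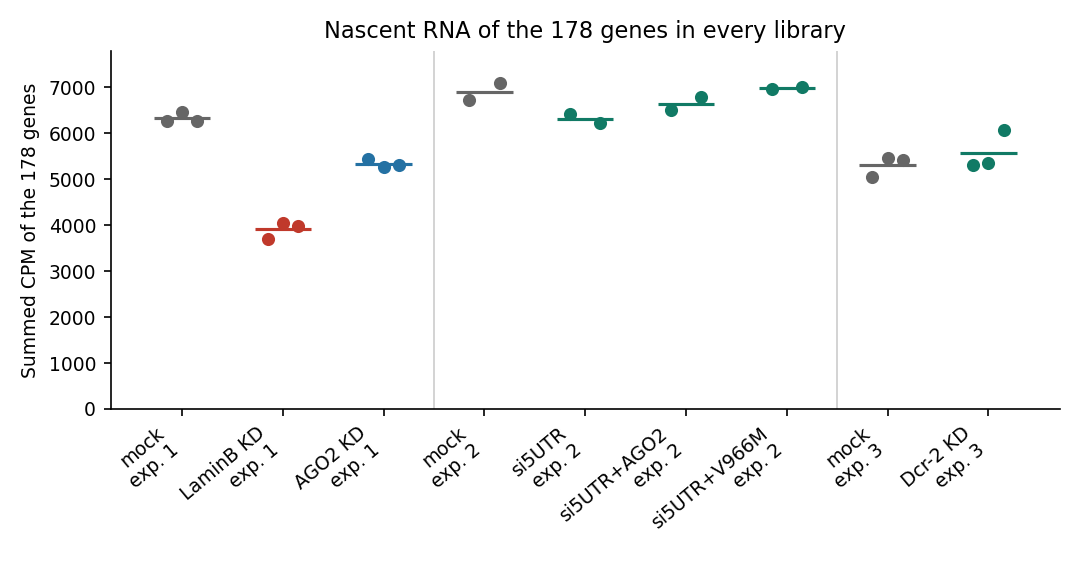
Summed CPM of the 178 genes (vertical axis, from 0) in each of the 23 libraries (points), by group and experiment; bars are group means. The LaminB KD libraries lie at 3710 to 4044, below every other library, and the mock libraries of experiment 3 lie at 5056 to 5469, below those of experiments 1 and 2.

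The lowest ratio belonged to mRpL23, a protein of the large mitochondrial ribosomal subunit (dm6, 3L from 2372844 to 2373704). It had 10.8, 19.5 and 9.26 CPM in mock and 6.14, 4.08 and 5.97 CPM in LaminB KD, a ratio of 0.41. One mock library was well above the other two. Gmd, an enzyme of GDP-fucose synthesis (2L from 4975300 to 4977023), had 17.4, 21.7 and 19.1 CPM in mock and 9.72, 7.56 and 8.06 CPM in LaminB KD. Here the libraries of each group lay close together and the groups stood well apart. DENR, a factor for translation reinitiation, had 15.6, 16.3 and 18.4 CPM in mock and 3.57, 9.12 and 9.83 CPM in LaminB KD, with the first LaminB KD library far below the others. Aldh7A1, an aldehyde dehydrogenase, had 24.9, 23.9 and 21.6 CPM in mock and 8.38, 7.80 and 18.4 CPM in LaminB KD. In this gene the third LaminB KD library came close to the mock range.

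SdhD, which encodes a membrane subunit of succinate dehydrogenase, had 14.7, 17.8 and 14.2 CPM in mock and 6.93, 6.0 and 8.28 CPM in LaminB KD. Nop10, a core protein of the H/ACA particles that guide pseudouridylation of RNA, had 33.7, 42.8 and 37.6 CPM in mock and 20.8, 14.8 and 17.9 CPM in LaminB KD. It had the highest mock level of the 12 genes with the lowest ratios. QIL1, a subunit of the complex that shapes mitochondrial cristae, went from 11.3, 11.6 and 15 CPM in mock to 3.91, 5.40 and 8.51 CPM in LaminB KD. CG3032, CG12935, mRpS2, mRpL18 and Ddrgk1 complete the 12, with ratios between 0.436 and 0.477. Most of these genes are near the floor of 10 CPM, and the fewest reads of any of the 178 genes in experiment 1 were 78 in a mock and 24 in a LaminB KD library. Over other scalings and with single libraries left out, the 12 ratios stayed within 0.345 to 0.571.

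**Figure D2:**
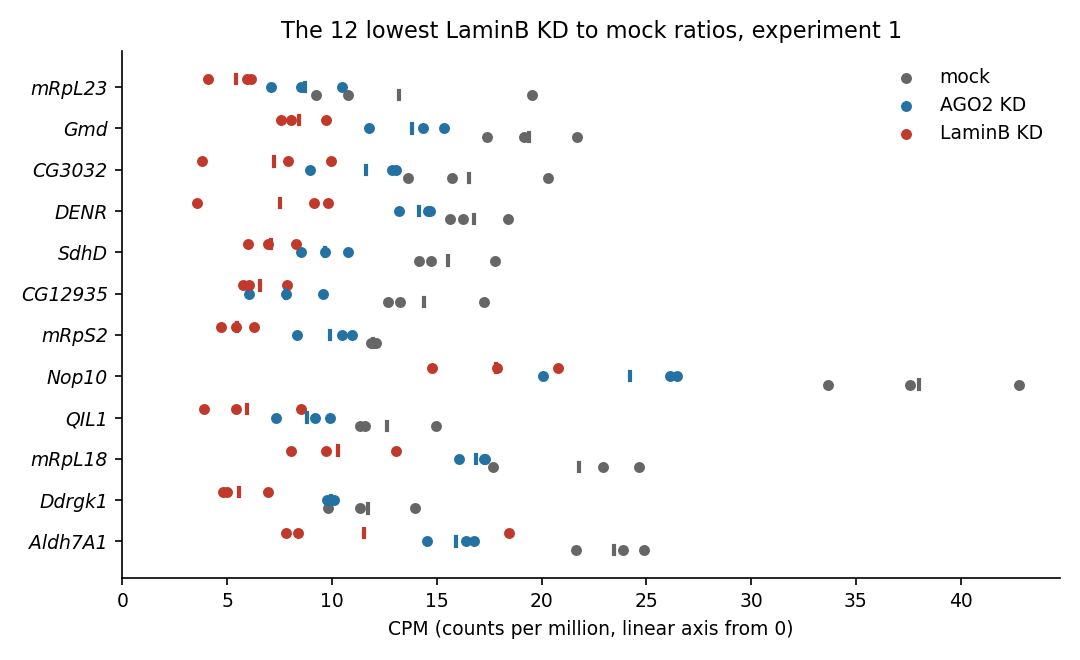
CPM (horizontal axis, linear from 0) of the 12 genes with the lowest LaminB KD to mock ratio in the 9 libraries of experiment 1; points are libraries and vertical ticks are group means. No LaminB KD library reaches a mock library of the same gene, as the rule required, and AGO2 KD libraries mostly lie between.

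Within the fixed gene lists, which hold 43 of the 178 genes, the lists with the most were both mitochondrial. The mitochondrial ribosome translates the few proteins that the mitochondrial genome encodes, and its protein subunits are nuclear genes. Of 48 mitochondrial ribosomal protein genes at 10 CPM or more, 11 (22.9%) were among the 178, against 3.00% of all genes at that level. They were mRpL23, mRpS2, mRpL18, mRpL42, mRpL15, mRpL46, mRpL52, mRpS10, mRpS22, mRpS18A and mRpL38. The genes of this list are short, with a median length of 1034 bases. Of all genes at that level, 14.6% under 1 kb and 6.86% from 1 to 2 kb were among the 178. mRpS2, a small subunit protein, had 11.9, 12.1 and 11.9 CPM in mock and 6.26, 4.68 and 5.41 CPM in LaminB KD. mRpL18, of the large subunit, had 23.0, 24.7 and 17.7 CPM in mock and 8.04, 9.72 and 13 CPM in LaminB KD. The mock libraries of mRpS2 were nearly equal, while those of mRpL18 spread more widely. Over the 69 genes of this list in the fit, 21 were called lower in LaminB KD and 1 higher, where 12.5% and 16.7% of all 8142 genes tested were, and the list median ratio was 0.744. Since 11 of them were chosen on this contrast, the count is a description. With the trend of levels on gene length removed from each library, described with the lengths, 6 of the 11 still met the rule.

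Of 58 nuclear genes of oxidative phosphorylation at 10 CPM or more, 13 (22.4%) were among the 178. They belong to complex I (ND-ASHI, ND-18, ND-SGDH, ND-51, ND-24), complex II (SdhD), complex III (UQCR-6.4), complex IV (COX7A, COX7C) and ATP synthase (ATPsynE, ATPsynD, ATPsynG, ATPsynF). The median length of this list was 1344.5 bases, and 6.86% of all genes from 1 to 2 kb were among the 178. ATPsynE had 41.1, 50.8 and 43.3 CPM in mock and 18.4, 24.7 and 27.0 CPM in LaminB KD. ATPsynD had 60.1, 67.1 and 36.8 CPM in mock and 34.4, 23.2 and 31.8 CPM in LaminB KD, so that its lowest mock library was only just above its highest LaminB KD library. Over the 68 genes of this list in the fit, 19 were called lower and 2 higher, beside the same 12.5% and 16.7% of all genes, with a list median ratio of 0.815. This count too is a description. With the length trend removed, only SdhD and ATPsynE, 2 of the 13, still met the rule. The genes of the mitochondrial genome itself gave none of the 178. The 9 of them at 10 CPM or more had ratios from 0.801 to 1.1.

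Genes of nuclear gene expression were present in smaller shares. Of 66 genes for RNA polymerase II, its general factors and Mediator, the complex that links activators to the polymerase, 6 (9.09%) were among the 178: MED4, Polr2J, Taf13, MED22, MED20 and MED6. MED4 had 16.7, 17.9 and 15.8 CPM in mock and 3.35, 11.2 and 14.6 CPM in LaminB KD, with 1 LaminB KD library far below the other 2. Polr2J, a small polymerase subunit, had 23.2, 27.5 and 21.9 CPM in mock and 13.3, 16.4 and 12.4 CPM in LaminB KD. Taf13, a subunit of the TFIID complex at promoters, had a ratio of 0.621. The median length of this list was 1628 bases, and 6.86% of all genes from 1 to 2 kb were among the 178. With the length trend removed, none of the 6 still met the rule. Outside the fixed lists, and picked out after their values were seen, were genes of ribosome assembly and RNA processing: vito (0.509), Ns1 (0.619), Fib (0.629) and ppan (0.651), and the exosome subunits Ski6 (0.591), Rrp42 (0.630) and Rrp4 (0.641), each with its ratio in brackets. Other genes of these kinds were not counted, so no share can be given. Of the genes picked out, only vito still met the rule with the length trend removed.

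The proteasome, which degrades tagged proteins, gave 3 of its 32 genes at 10 CPM or more (9.4%). Its catalytic subunit Prosbeta2 had 72.6, 72.7 and 67.0 CPM in mock and 35.3, 38.4 and 48.9 CPM in LaminB KD. Rpn9 and Rpn8, of the regulatory particle, had ratios of 0.614 and 0.651. The list median was 0.774, and 19 of 33 proteasome genes in the fit were called lower and 1 higher, beside 12.5% and 16.7% of all genes. The 32 ratios ran from 0.578 to 0.909, all below 1, and most missed the limit of 0.67. With the length trend removed, none of the 3 still met the rule.

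Genes of the nuclear envelope and of heterochromatin were few. Ote, a LEM-domain protein of the inner nuclear membrane that binds LaminB, had 121, 118 and 121 CPM in mock and 73.2, 86.6 and 81.5 CPM in LaminB KD. It was 1 of 10 genes of the lamina list at that level, whose ratios ran from 0.669 to 1.81. The gene of HP1a, the founding heterochromatin protein, had 129, 133 and 114 CPM in mock and 83.8, 70.0 and 81.1 CPM in LaminB KD. HP1c, a related protein of euchromatin, had a ratio of 0.569. Over the 28 genes of the Polycomb and heterochromatin list the median ratio was 0.926, so these 2 genes were not typical of it. The nucleoporin genes Nup43 (0.603) and Nup35 (0.631) were 2 of 32 nuclear pore genes. With the length trend removed, no gene named in this paragraph still met the rule.

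Several genes act in mitosis. Cdk1, the kinase that starts it, had 48.9, 62.3 and 52 CPM in mock and 35.3, 29.3 and 37.8 CPM in LaminB KD. aurB, the kinase of the chromosomal passenger complex, had a ratio of 0.636, and both were among 33 genes of the cell cycle list. They were the only members from that list (6.06%), beside 3.00% of all genes at 10 CPM or more. borr, a partner of aurB in that complex (0.540), bora, an Aurora A activator (0.592), and cid, the centromeric histone H3 variant (0.659), lay outside the lists and were picked out after their values were seen. Other mitotic genes outside the lists were not counted. Over the 33 cell cycle genes, 17 were called lower in LaminB KD, beside 12.5% of all genes, and the list median ratio was 0.830. Those calls use the libraries of the rule and are a description. With the length trend removed, Cdk1, aurB, bora and cid no longer met the rule, while borr still did.

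The remaining lists gave 1 gene or none. RpL37A was the only 1 of 76 cytosolic ribosomal protein genes, although that list had a median ratio of 0.814. Sec61beta, a subunit of the protein-conducting channel of the endoplasmic reticulum, was 1 of 27 secretory genes, and asRNA:CR42254 was 1 of 65 noncoding and antisense RNA genes, whose median ratio was 1.20. None of 37 translation factor genes, 22 heat shock and chaperone genes, 12 glycolysis genes, 22 RNAi pathway genes, 23 insulator genes, 12 ecdysone response genes or 23 immune genes was among the 178. Even so, the heat shock, translation factor and insulator lists had median ratios of 0.773, 0.816 and 0.814. In these, 15 of 30, 14 of 40 and 10 of 23 genes in the fit were called lower, beside 12.5% of all genes. Called higher were 2, 1 and 3, beside 16.7%. All these calls use the libraries of the rule and are a description. The glycolysis, RNAi, ecdysone and immune lists had medians of 0.961, 0.897, 1.27 and 0.996.

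**Figure D3:**
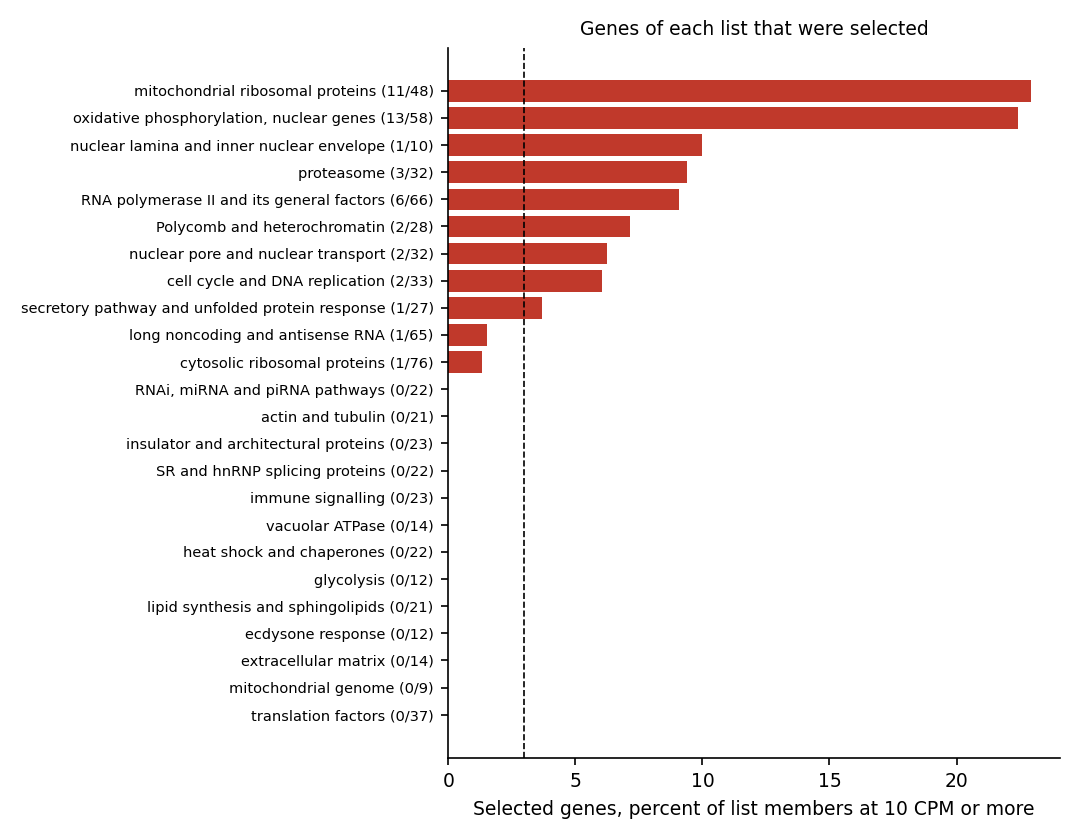
Percent of the genes of each list at 10 CPM or more in mock that are among the 178 (bars, from 0), with the counts behind each bar in brackets and lists of under 9 such genes left out; the dashed line is the 3.00% over all genes. The mitochondrial ribosome and oxidative phosphorylation lists reach 22.9% and 22.4%. The share over all genes differed by gene length, with 14.6% under 1 kb and 6.86% from 1 to 2 kb.

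The 8 genes with the most reads were of several kinds. HP1a and Ote, described above, were among them with mock means of 125 and 120 CPM. CPM is not divided by gene length, so it orders genes by reads and not by transcripts. Orct2, an organic cation transporter, had 422, 362 and 377 CPM in mock and 268, 231 and 240 CPM in LaminB KD. ncd, a kinesin that moves to microtubule minus ends, had 189, 204.9 and 199 CPM in mock and 107, 133 and 131 CPM in LaminB KD. Fib, the methyltransferase of box C/D particles, had 109, 96.1 and 93.5 CPM in mock and 64.2, 57.9 and 65.8 CPM in LaminB KD. CG3902, Gcna and Rpn9 had mock means of 128, 103 and 99.8 CPM. In these well-covered genes the groups stood apart by several times the spread within a group. The median mock level of the 178 genes was 23.9 CPM, against 64.9 CPM for all genes at the floor.

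AGO2 KD was compared with the same 3 mock libraries, so its values are not independent of the rule and are set beside those of LaminB KD with nothing read from them. The AGO2 KD to mock ratio had a median of 0.844 over the 178 genes, from 0.536 to 1.43. It was below 1 in 156 genes and above 1 in 22. Over all 5935 genes at the floor its median was 0.934 and its upper quartile 1.03, so most genes there were below 1 as well. For 75 genes all 3 AGO2 KD libraries were below every mock library, and 24.8% of all genes at the floor had this property. The 63 genes at or below 0.8 compare with 11.2% of all genes at the floor. In the edgeR fits, 14 of the 178 were called lower in AGO2 KD (2.32% of all genes tested were) and 1 was called higher (7.92% of all). In LaminB KD, 164 were called lower (12.5% of all) and none was called higher (16.7% of all), also at an unadjusted p under 0.05 and by DESeq2, which the rule fixed by choosing the genes on these libraries.

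Among the 63 genes lower in both, Ctu1, which thiolates the wobble base of tRNA, had the lowest AGO2 KD ratio. It had 14.4, 14.8 and 15.1 CPM in the mock libraries, 7.92, 5.89 and 9.97 CPM in AGO2 KD and 10.8, 5.64 and 9.83 CPM in LaminB KD. CG12935 followed, with 13.2, 12.7 and 17.3 CPM in the mock libraries, 9.55, 6.06 and 7.83 CPM in AGO2 KD and 6.03, 5.76 and 7.84 CPM in LaminB KD. In both genes the 2 knockdowns covered about the same range. PIG-U, of the complex that attaches GPI anchors, had 23.4, 25.7 and 32.7 CPM in the mock libraries, 14.9, 17.1 and 16.9 CPM in AGO2 KD and 15.5, 18 and 18.4 CPM in LaminB KD. Ctu1 and PIG-U were the only 2 of the 178 genes whose ratio was lower in AGO2 KD than in LaminB KD. CG9667, png, CG8067, amrt and SdhD had AGO2 KD ratios of 0.559, 0.565, 0.613, 0.615 and 0.621.

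The other end held genes with an AGO2 KD ratio above 1. ATPsynG had 28.1, 26.0 and 19.9 CPM in mock, 11.3, 19.0 and 14.9 CPM in LaminB KD and 28.4, 41.0 and 36.6 CPM in AGO2 KD, the highest AGO2 KD ratio at 1.43. Every AGO2 KD library was above every mock library in this gene. Tret1-1, a trehalose transporter (1.33), eca, a p24 cargo receptor (1.29), CG11808 (1.21) and COX7C (1.20) came next by AGO2 KD ratio. In Dcr-2 KD eca had 14.5, 14.1 and 7.09 CPM against 14.8, 19.8 and 21.6 CPM in its mock, and it was not called (adjusted p 0.364 by edgeR). The 63 and the 115 genes had similar LaminB KD ratios, with medians of 0.610 and 0.626, and gene lengths with medians of 1543 and 1155.5 bases. Of the 11 mitochondrial ribosomal protein genes, 4 were among the 63, and of the 13 oxidative phosphorylation genes 1 was (SdhD).

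At the edge of the rule, Ote, Vps25 and Nsun5 were just inside with ratios of 0.669165, 0.669197 and 0.669208. MED28, CG5245 and tra were just outside with 0.670024, 0.670058 and 0.670226. A further 32 genes met the ratio and were left out because their libraries overlapped, among them mRpS17 and mRpS24. The mirror image of the rule, at least 1/0.67 times mock without overlap, found 210 genes.

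Most of the 178 genes are short. The rule did not use length, and 177 of the genes had a gene model. Their median length was 1330 bases, against 3125 bases for all 5835 genes at the floor with a model, and 82.5% were under 2 kb against 30.1%. The share of genes that met the rule was 14.6% under 1 kb (48 of 328), 6.86% from 1 to 2 kb (98 of 1429), 1.23% from 2 to 5 kb (26 of 2120) and 0.558% from 5 to 10 kb (5 of 896). None of the 1062 genes of 10 kb or more met it. The longest of the 178 were nrv2 at 9093 bases, a subunit of the sodium pump, and Tret1-1 at 9015 bases.

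The whole transcriptome moved with length as well. The median LaminB KD to mock ratio of all genes was 0.796 under 1 kb, 0.842 from 1 to 2 kb, 0.902 from 2 to 5 kb, 0.967 from 5 to 10 kb and 1.1 at 10 kb or more. Genes of 10 kb or more took 47.7 to 48.8% of the reads in mock, 51.8 to 52.7% in LaminB KD and 50.1 to 51.0% in AGO2 KD, without overlap between the 3 groups. When the trend with length was divided out of each library, an alternative chosen after seeing the data, 39 genes met the rule, and 33 of them were among the 178. The 33 include mRpL23, Gmd, CG3032, DENR, SdhD, Nop10, QIL1, borr and nrv2, but not Ote, HP1a, ncd, Fib or Orct2. With TMM library sizes 129 of the 178 met the rule and no other gene did. The part of length in the lower levels of the 178 genes was not tested beyond this.

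**Figure D4:**
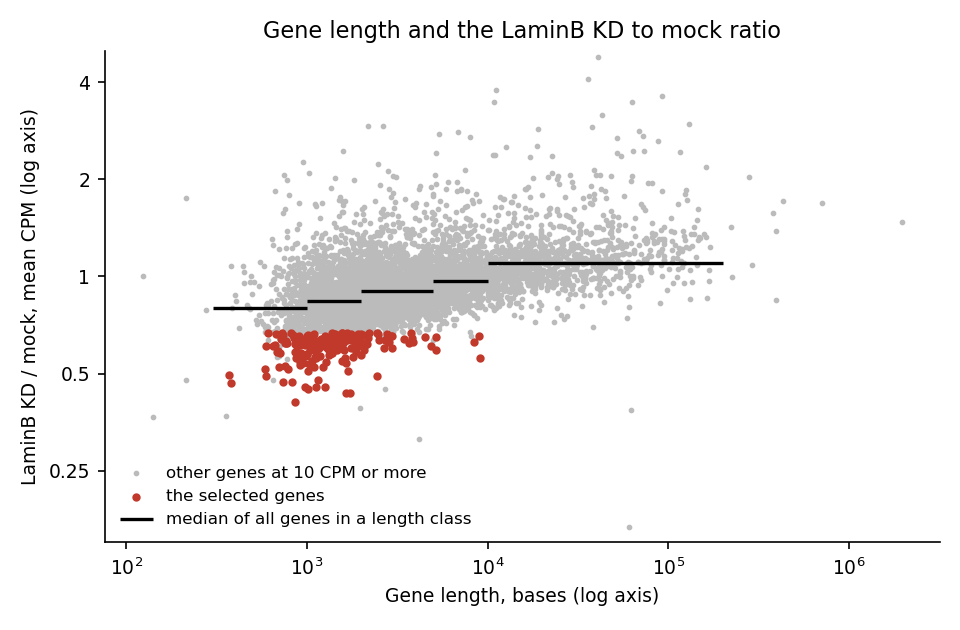
LaminB KD to mock ratio of mean CPM (vertical, log axis) against gene length in bases (horizontal, log axis) for genes at 10 CPM or more in mock; red points are the selected genes and black lines are the medians of all genes in 5 length classes. The medians climb from 0.796 under 1 kb to 1.1 at 10 kb or more, and no selected gene is longer than 9093 bases.

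Other features were close to those of short genes. Of the 177 genes, 37 (20.9%) had no intron, against 8.41% of all genes at the floor and 20.4% of those under 2 kb. A start of another gene at the floor on the opposite strand lay within 500 bases upstream for 80 (45.2%), against 34.4% and 42.9%. 176 were protein coding, and 1 was a noncoding RNA. They were spread over the large chromosome arms (35 on 2L, 43 on 2R, 26 on 3L, 40 on 3R and 33 on X), close to the spread of all genes at the floor, with none on chromosome 4, where 49 genes were at the floor. 8 of them, Fib and CG3902 included, overlap another gene on the same strand, so that part of their reads may be uncertain.

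9 pairs of the 178 genes are direct neighbours, and 6 of these are head to head, with starts facing away from a shared gap. Such pairs were not counted among other genes, so they are not shown to be particular to the 178. CG3032 and CG4593 (X from 7012239 to 7015009) start 5 bases apart and had ratios of 0.436 and 0.558. mRpS2 and Mon1, a factor of endosome maturation, lie 221 bases apart with ratios of 0.455 and 0.570. HP1a and Ssb-c31a, a coactivator that binds single-stranded DNA, lie 224 bases apart with 0.625 and 0.608. The others are colt and HINT1, CG9662 and Ptpa, and Sf3b5 and CG11986. CG12935 and Nop10, both among the 12 lowest, run toward each other and overlap by 100 bases at their ends. Their reads were counted by strand. The 187 other neighbours at the floor had a median ratio of 0.895, beside 0.927 for all genes at the floor.

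Stretches of the shared gaps of 3 head-to-head pairs are shown, since one such stretch lies upstream of both genes of its pair. They are read from the dm6 assembly on the plus strand, wholly between the starts of both genes, and capitals mark a match to a motif.
mRpS2 and Mon1, chr2L:4850420-4850449, CAGCTG: gtaaaCAGCTGgtgggtagtgttggataga
CG9662 and Ptpa, chr2L:3376790-3376819, CAGCTG: catctatgcttgCAGCTGcatcgtaagcca
colt and HINT1, chr2L:2770070-2770099, GAGAG: gcaggtgtGAGAGcattcgaataccctaaa

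The E-box CAGCTG, a site type for basic helix-loop-helix factors, was thus present in 2 of the 6 gaps. TATAAA was present in the same 2 gaps, and GATAAG in that of HP1a and Ssb-c31a, in stretches not shown. The gaps of Sf3b5 and CG11986 and of CG3032 and CG4593 held none of the motifs searched. In windows from 250 bases before to 50 bases after the annotated start, searched on both strands, CAGCTG occurred in 53 of 177 genes (29.9%), in 21.1% of 8009 genes tested in experiment 1 and in 25.1% of 1748 genes at the floor under 2 kb. TATCGATA, the DNA replication-related element (DRE) of many housekeeping promoters, occurred in 11.9%, 14.4% and 19.7% in the same order. GAGAG occurred in 21.5%, 28.9% and 19.3%, TATAAA in 42.9%, 44.1% and 49.2%, and GATAAG in 19.8%, 18.4% and 19.1%. TGANTCA occurred in 4.52%, 5.93% and 5.72%, and TGACGTCA in 1 gene (0.565%, 0.512% and 0.400%). TCAGT on the gene strand within 10 bases of the start, as in the initiator, occurred in 7.34%, 9.50% and 3.78%. No motif was held by most of the genes, and a match is only a match of letters.

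Experiments 2 and 3 were not used to choose the genes and allow tests. All 178 genes passed the filter on low counts in both. In Dcr-2 KD none was called lower, where 0.634% of 7733 genes were, and none was called higher, where 1.38% were (edgeR's quasi-likelihood test, adjusted p under 0.1 by Benjamini-Hochberg). At an unadjusted p under 0.05, 2 were lower and 8 higher, in both directions together 5.62% of the 178 beside 12.6% of all genes. DESeq2 also called none of the 178, though it gave 153 of them no adjusted p. The median log2 fold change was 0.06 over the 178 genes and 0.0063 over all genes. Summed CPM was 5056, 5469 and 5428 in mock and 5313, 5354 and 6082 in Dcr-2 KD, so the groups overlapped and the third Dcr-2 KD library, the one with the fewest reads, was highest.

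With si5UTR, 2 of the 178 were called lower, where 0.344% of 8727 genes were, and none was called higher, where 0.882% were. At an unadjusted p under 0.05, 16 were lower and none was higher. In both directions together, 8.99% of the 178 and 8.49% of all genes passed that limit. The share of all genes in each direction was not counted at that limit, so the 16 lower have no background of their own. Of any size, log2 fold changes were below 0 in 57.3% of the 178 and 49.9% of all genes. DESeq2 called 5 lower and none higher, with no adjusted p for 112 of the 178. The 2 genes were ATPsynE and nAChRbeta3. ATPsynE, of ATP synthase, had 71.7 and 76.7 CPM in mock and 40.8 and 46.9 CPM with si5UTR, which is -0.76 on the log2 scale (SE 0.190; adjusted p 0.0620 by edgeR), and both si5UTR libraries were below both mock libraries. nAChRbeta3, a nicotinic acetylcholine receptor subunit, had 149 and 137 CPM in mock and 85.0 and 95 CPM with si5UTR, or -0.66 on the log2 scale (SE 0.168; adjusted p 0.0650 by edgeR). The call of ATPsynE was lost without mock replicate 8, si5UTR replicate 2 or si5UTR replicate 3 (edgeR adjusted p 0.417, 0.323 and 0.122), and that of nAChRbeta3 without mock replicate 7 or si5UTR replicate 2 (edgeR adjusted p 0.102 and 0.174) and with a replicate block by the lookup table's numbers (0.307).

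Adding AGO2 back was compared with si5UTR alone. No group is labelled as an empty plasmid, so the AGO2 protein and the plasmid itself cannot be told apart. AGO2 had 283 and 318 CPM in mock and 158 and 161 CPM with si5UTR. It rose above mock to 468 and 429 CPM with si5UTR+AGO2 and to 385 and 441 CPM with si5UTR+V966M. With wildtype AGO2 none of the 178 was called lower (0.527% of all genes were) and 1 was called higher (0.103% were), with the same 0 and 1 by DESeq2. At an unadjusted p under 0.05, 3 were lower and 7 higher, in both directions together 5.62% of the 178 beside 6.41% of all genes. The gene was Jheh1, a juvenile hormone epoxide hydrolase, with 147 and 114 CPM with si5UTR and 182 and 204 CPM with si5UTR+AGO2. Its log2 difference was 0.57 (SE 0.138; adjusted p 0.0672 by edgeR), and the call was lost without si5UTR replicate 3 or si5UTR+AGO2 replicate 2 (edgeR adjusted p 0.904 and 0.166), in a fit of both compared groups alone (0.116) and with that replicate block (0.254). With the V966M mutant none was called lower (0.16% of all genes were) and none higher (0.103% were), and DESeq2 called 0 lower and 1 higher. At an unadjusted p under 0.05, 3 were lower and 13 higher, in both directions together 8.99% of the 178 beside 8.53% of all genes. Of any size, log2 fold changes with V966M were below 0 in 29.8% of the 178 and 51.5% of all genes.

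The median log2 fold change of the 178 genes was -0.06 for si5UTR against mock, 0.07 for si5UTR+AGO2 against si5UTR and 0.14 for si5UTR+V966M against si5UTR, with medians of all genes from -0.0090 to 0. Of the 177 genes with a length, 146 are under 2 kb, and there the medians were near those of other genes of like length. Among genes of 1 to 2 kb, the median log2 fold change with V966M was 0.14 for 98 of the 178 and 0.11 for 1331 others. With si5UTR these medians were -0.04 and -0.05. Under 1 kb, the median with V966M was 0.19 for 48 of the 178 and 0.21 for 280 others. The few longer ones were farther from their class with V966M, with medians of 0.12 for 26 genes of 2 to 5 kb against 0.0062 for 2094 others, and 0.23 for 5 genes of 5 to 10 kb against -0.06 for 891 others. The 11 mitochondrial ribosomal protein genes had median log2 fold changes of -0.09 with si5UTR and 0.12 with V966M, and the 13 oxidative phosphorylation genes had -0.21 and 0.21, of which only ATPsynE with si5UTR was called.

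**Figure D5:**
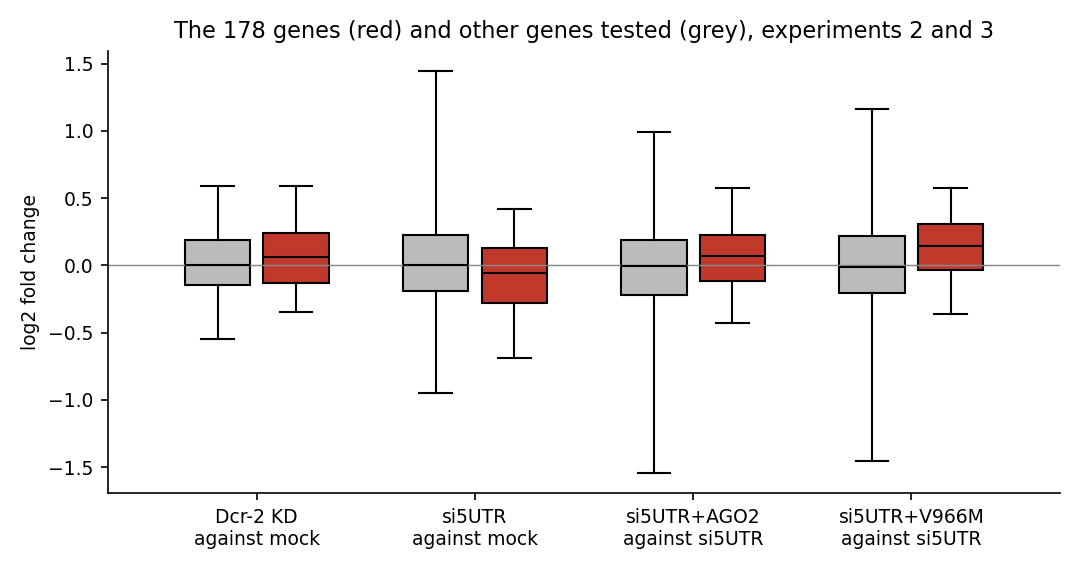
Log2 fold change (vertical axis) of the 178 genes (red) and of the other genes tested (grey) in the 4 comparisons of experiments 2 and 3; boxes span the quartiles, black lines are medians and whiskers run from the 5th to the 95th percentile. The red medians lie at 0.06, -0.06, 0.07 and 0.14, and each red box overlaps its grey box.

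The mock level of the 178 genes also differed between experiments. Against mock of experiment 1, mock of experiment 2 had a median ratio of 1.03, from 0.463 to 2.11, with 7 genes at or below 0.67 and 12 at or above its inverse. Mock of experiment 3 had a median ratio of 0.871, from 0.381 to 2.79, with 31 genes at or below 0.67 and 3 at or above its inverse. The share of all genes at the floor with such ratios was not counted. The rule used the levels in mock of experiment 1, so that mock is not a neutral reference for these genes. ncd had 98.4, 85.7 and 102 CPM in mock of experiment 3, below all 3 LaminB KD libraries of experiment 1. Gcna had 51.4, 56.9 and 43.0 CPM there and Tret1-1 had 34.5, 27.6 and 34.8 CPM, the latter against 8.78 to 13.9 CPM in mock of experiment 1. Untreated levels of single genes thus differed between experiments by as much as LaminB KD differed from its own mock, and all comparisons were made within experiments.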

How the data were processed

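neuRNA-seq libraries of Kc167 cells (23, in 3 experiments) were analysed. Per the labels and methods, the authors trimmed reads with cutadapt 1.10, mapped them to dm6 with HISAT2 2.0.4 and assigned them, strand by strand, to gene bodies with introns using featureCounts 1.5.0-p3. The authors deposited raw counts, neither normalized nor filtered. Reads carried no molecular identifiers. Sequences and promoters were read from RefSeq's dm6 assembly at the gene starts of the Ensembl annotation of the same build, while the authors counted over FlyBase models. Of 17659 gene IDs, 17464 matched a symbol. 1 of the 178 genes, FBgn0031781, matched none.

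CPM used column totals. Each experiment was fitted apart with edgeR 4.0.16 (R 4.3.3; TMM, filterByExpr, quasi-likelihood F test, treatment as the only term), and p-values were adjusted by Benjamini-Hochberg over all genes tested, with calls at an adjusted p under 0.1. Each SE was the log2 difference over the root of F. The fits were tested on simulated data. The genes, lists and tests were chosen with earlier results of these data known. Named genes were the 12 lowest LaminB KD ratios, the 8 highest mock levels, the 8 lowest (at or below 0.8) and 5 highest AGO2 KD ratios, up to 5 calls a direction in experiments 2 and 3, 3 on each side of the threshold, up to 3 a list, and neighbouring pairs. Alternatives were DESeq2 1.42.0, RLE normalization, unfiltered genes, a limit of 0.05 on adjusted p, fits of the compared groups alone, leaving out each library, a replicate block, other settings of the rule and, chosen after seeing the data, a replicate block by the lookup table's numbers and removal of the length trend (lowess, span 0.3, statsmodels 0.14.6, on log2 of CPM plus 0.5). Between libraries of a group chi-square over its degrees of freedom was 7.19 to 29.2, so no library repeats another.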

Additional observations from a re-analysis of the deposited data

Results flagged for a closer look

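Each named gene and 3 sums over the 178 genes were checked over the 8 mock libraries of all experiments for a library far from the rest, 66 checks in all, of which chance alone would mark about 1 in 20. 3 were marked. mRpL23 had 19.5 CPM in mock replicate 2 and 9.26 to 12.0 CPM in the other mock libraries. png, a kinase subunit of early embryonic cycles, had 26.1 CPM in mock replicate 8 against 8.32 to 15 CPM in the others, and Nup43 had 12.5 CPM in mock replicate 10 against 17.8 to 21.3 CPM.

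2 of the 13 genes named for their AGO2 KD ratio went opposite ways with both means of lowering AGO2, with every library of 1 group on the same side of its own mock. CG12935 was at 0.543 times mock in AGO2 KD and at 1.92 times mock with si5UTR (16.0 and 11 CPM against 7.15 and 6.95 CPM). Ctu1 was at 0.536 times mock in AGO2 KD and at 1.49 times mock with si5UTR (19.5 and 15 CPM against 10.6 and 12.4 CPM). Both genes were named for their low AGO2 KD ratios, and experiment 2 has only 2 libraries a group. How many of all genes go opposite ways in this manner was not counted. These differences between experiments were not tested.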

How the results depend on the processing

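The genes found by the rule fell from 178 to 104 with a floor of 20 CPM, to 14 at a ratio of 0.5 and to 39 with the length trend removed, rose to 548 at 0.75, and were 189 to 267 with 1 library left out, which loosens the condition on overlap. Those also lower in AGO2 KD went from 63 to 40 with TMM sizes and to 33, 9, 13 and 146 under those rules, and were 65 to 110 (without mock replicate 1) with 1 library left out.

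With no filter on low counts, genes called lower and higher were 173 and 201 in Dcr-2 KD, 85 and 134 with si5UTR, 84 and 35 with si5UTR+AGO2, and 33 and 38 with si5UTR+V966M. Of the 178 genes, 2 were then higher in Dcr-2 KD, 4 lower with si5UTR and 1 higher with V966M. DESeq2 called 170 lower in Dcr-2 KD, 63 lower and 136 higher with si5UTR (5 of the 178 lower), 73 and 14 with si5UTR+AGO2, and 87 and 26 with V966M (1 of the 178 higher). At an adjusted p under 0.05, 115 were lower in AGO2 KD, 13 lower and 49 higher in Dcr-2 KD, 10 lower with si5UTR, and 6 lower and 3 higher with V966M, and 0 of the 178 were called with si5UTR or si5UTR+AGO2. In fits of the compared groups alone, 303 were lower in AGO2 KD, 1 lower and 3 higher with V966M, and Jheh1 was lost (0 of the 178).

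The replicate numbers do not pair the samples (correlations of deviations -0.083 to 0.044). The replicate block by label gave 30 genes higher with V966M, 1 of them among the 178. The replicate block by the lookup table's numbers gave 132 lower in Dcr-2 KD (1 of the 178 higher), 4 of the 178 lower with si5UTR, 25 higher with si5UTR+AGO2 (2 of the 178, median log2 fold change 0.10) and 30 higher with V966M (1 of the 178). Although these counts rose, nAChRbeta3 and Jheh1 lost their calls under it (edgeR adjusted p 0.307 and 0.254).

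With 1 library left out, the ranges were 702 to 1054 lower in LaminB KD and 69 to 278 in AGO2 KD, 1 to 84 lower and 17 to 152 higher in Dcr-2 KD, 12 to 121 and 54 to 105 with si5UTR, 30 to 97 and 24 to 34 with si5UTR+AGO2, and 8 to 97 and 16 to 46 with V966M. Of the 178 genes, 0 to 0 were called in Dcr-2 KD, 0 to 4 lower with si5UTR, 0 to 2 higher with si5UTR+AGO2, and 0 to 2 lower and 0 to 1 higher with V966M. Their median log2 fold change was 0.0089 to 0.12 in Dcr-2 KD, -0.13 to -0.021 with si5UTR, 0.040 to 0.12 with si5UTR+AGO2, and 0.12 to 0.17 with V966M. The causes of these changes were not tested.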
